A study of Mus musculus with 6 samples.

Results

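Dimethylation of histone H3 at lysine 9 (H3K9me2) was profiled by CUT&RUN in gastrocnemius muscle lacking Phf2, and the peaks of that library were set against the peaks of an input library of the same genotype. On the 19 autosomes and the sex chromosomes there were 12832 H3K9me2 peaks and 10931 input peaks, of 48419 peaks in the 6 lists of the series. A peak belonged to both lists when an H3K9me2 peak and an input peak shared 1 bp or more, and all other peaks were called antibody alone or input alone. The knockout (CKO) mice carried Phf2 flox/flox with Acta1 Cre+, and the controls (Ctrl) carried the same floxed alleles with Acta1 Cre-. All were 4-week-old males of the C57BL/6 strain, with no treatment named. The Ctrl mice gave 1 H3K4me3 library (its title calls it wild type), 1 H3K9me2 library and 2 inputs, used here only as further readouts. Acta1 encodes skeletal muscle actin, so its promoter drives Cre in muscle fibres, and the whole muscle also holds vessels, nerve, connective tissue, satellite cells and immune cells that keep Phf2. Each CKO list comes from 1 library, so no difference below has a replicate check, and intervals cover counting error over peaks alone.

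H3K9me2 is deposited mainly by the enzymes EHMT1 and EHMT2, is read by HP1 proteins, and typically covers broad domains of silent, gene-poor chromatin. PHF2 belongs to the JmjC family of histone demethylases, has been described as removing H3K9me2, and binds H3K4me3, the mark of active promoters, through its PHD finger. In CUT&RUN an antibody in intact nuclei directs a nuclease to cut around the mark, and an input library serves to show where fragments are recovered without regard to the mark. How the input was made is not stated.

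The sequences at gene starts show how alike the DNA at starts met by peaks of the 3 classes can be. They are 300-base RefSeq windows of the assembly GRCm38.p6, from 250 bases before to 50 after an annotated start, printed 5′ to 3′ on the gene's strand. Capitals mark matches, on either strand and where they overlap joined, to 4 motifs. The GC box is GGGCGG, read on the other strand as CCGCCC. The CCAAT box is read on the other strand as ATTGG. The TATA box was searched as TATAAA, which is TTTATA on the other strand. The ETS motif was searched as CCGGAAG, which is CTTCCGG on the other strand. Each class is shown by 3 starts met by a high peak or in the H3K9 methylation pathway. A window met by a peak need not hold its summit. The summits at Hjurp and Lta4h lay 221 and 280 bp after the start, past the end of the window. The summits at Rnpc3 and Trim28, given below, also lay past it. Antibody alone is shown by Rnpc3 at chr3:113630100-113630399 (minus strand), Ccdc59 at chr10:105841229-105841528 (plus strand) and Trim28 at chr7:13023902-13024201 (plus strand). Both lists are shown by Hjurp at chr1:88277530-88277829, Zfp868 at chr8:69625126-69625425 and Kdm3a at chr6:71632637-71632936 (all minus strand). Input alone is shown by Lta4h at chr10:93453146-93453445 (plus strand), Gtsf1 at chr15:103430378-103430677 (minus strand) and Cbx5 at chr15:103215303-103215602 (minus strand, at one of its starts).
Rnpc3: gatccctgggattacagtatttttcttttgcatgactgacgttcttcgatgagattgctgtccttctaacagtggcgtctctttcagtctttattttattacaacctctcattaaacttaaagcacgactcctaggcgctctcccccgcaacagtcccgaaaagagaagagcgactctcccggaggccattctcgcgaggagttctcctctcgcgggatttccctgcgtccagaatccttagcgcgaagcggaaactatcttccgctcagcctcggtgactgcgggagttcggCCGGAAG
Ccdc59: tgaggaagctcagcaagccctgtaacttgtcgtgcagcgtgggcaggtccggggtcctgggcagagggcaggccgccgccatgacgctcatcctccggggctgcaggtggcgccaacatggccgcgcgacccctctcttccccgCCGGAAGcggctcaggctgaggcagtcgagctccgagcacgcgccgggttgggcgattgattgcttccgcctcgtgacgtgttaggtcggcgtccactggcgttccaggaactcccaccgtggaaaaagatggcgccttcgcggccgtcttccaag
Trim28: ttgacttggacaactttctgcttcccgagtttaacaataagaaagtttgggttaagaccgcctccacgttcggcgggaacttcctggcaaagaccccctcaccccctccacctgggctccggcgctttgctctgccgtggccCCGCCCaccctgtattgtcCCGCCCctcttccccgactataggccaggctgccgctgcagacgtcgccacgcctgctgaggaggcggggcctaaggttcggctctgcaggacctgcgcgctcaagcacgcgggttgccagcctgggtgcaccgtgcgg
Hjurp: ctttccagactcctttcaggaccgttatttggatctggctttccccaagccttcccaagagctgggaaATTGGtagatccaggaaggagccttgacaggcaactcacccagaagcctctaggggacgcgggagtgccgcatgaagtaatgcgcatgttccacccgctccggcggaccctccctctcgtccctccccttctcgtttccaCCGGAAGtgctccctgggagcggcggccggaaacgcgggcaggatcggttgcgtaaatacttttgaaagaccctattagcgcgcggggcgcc
Zfp868: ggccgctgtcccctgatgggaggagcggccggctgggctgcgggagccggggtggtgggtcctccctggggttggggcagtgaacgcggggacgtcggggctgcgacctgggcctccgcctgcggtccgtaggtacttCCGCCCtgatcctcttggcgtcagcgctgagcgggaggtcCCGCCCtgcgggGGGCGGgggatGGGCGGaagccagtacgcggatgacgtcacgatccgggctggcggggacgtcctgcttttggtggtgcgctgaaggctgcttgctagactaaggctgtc
Kdm3a: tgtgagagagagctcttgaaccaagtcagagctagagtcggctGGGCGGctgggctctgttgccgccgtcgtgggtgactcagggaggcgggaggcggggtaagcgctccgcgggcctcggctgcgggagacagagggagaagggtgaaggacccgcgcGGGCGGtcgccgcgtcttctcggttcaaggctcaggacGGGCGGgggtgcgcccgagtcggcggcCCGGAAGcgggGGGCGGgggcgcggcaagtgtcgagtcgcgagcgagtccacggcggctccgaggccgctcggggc
Lta4h: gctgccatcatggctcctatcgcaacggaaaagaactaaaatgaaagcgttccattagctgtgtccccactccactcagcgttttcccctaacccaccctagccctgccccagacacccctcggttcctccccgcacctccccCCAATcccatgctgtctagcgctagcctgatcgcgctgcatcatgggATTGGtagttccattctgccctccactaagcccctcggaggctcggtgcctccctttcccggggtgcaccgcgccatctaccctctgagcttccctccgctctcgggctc
Gtsf1: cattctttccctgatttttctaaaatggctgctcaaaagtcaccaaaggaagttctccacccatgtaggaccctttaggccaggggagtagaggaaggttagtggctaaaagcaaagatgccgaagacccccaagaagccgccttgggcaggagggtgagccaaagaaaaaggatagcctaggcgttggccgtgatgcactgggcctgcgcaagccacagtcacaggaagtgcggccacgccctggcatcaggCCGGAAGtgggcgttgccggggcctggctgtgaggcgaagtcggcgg
Cbx5: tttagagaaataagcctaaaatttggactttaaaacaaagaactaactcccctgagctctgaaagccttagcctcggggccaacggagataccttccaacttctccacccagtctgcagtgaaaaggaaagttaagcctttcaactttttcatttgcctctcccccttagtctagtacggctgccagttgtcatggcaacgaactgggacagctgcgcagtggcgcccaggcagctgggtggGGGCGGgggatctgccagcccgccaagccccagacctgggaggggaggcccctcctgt

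Most peaks of each list had no partner in the other. Of the H3K9me2 peaks, 10289 (80.2%, exact 95% interval 79.5 to 80.9) were antibody alone, and 2543 (19.8%, 19.1 to 20.5) overlapped an input peak. Of the input peaks, 8385 (76.7%, 75.9 to 77.5) were input alone, and 2546 (23.3%, 22.5 to 24.1) overlapped an H3K9me2 peak. The H3K9me2 peaks covered 5690 kb and the input peaks 4925 kb, with 964 kb in common. The class of a peak near the border turned on few bases: the smallest overlaps were 2, 5 and 5 bp and the smallest gaps 2, 8 and 12 bp. Such cases were few, since 143 antibody-alone peaks (1.39%) had an input peak within 1 kb and 39 of 2551 overlapping pairs shared under 50 bp.

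The peaks were narrow and rested on few fragments. The fold deposited for a peak is its summit pileup over a local background. Whether that background came from the same library or from a control was not stated. Antibody-alone peaks had a median fold of 5.39 (quartiles 4.59 and 6.38), 9 fragments at the summit and a width of 380 bp, and 34 of them were wider than 1 kb. Shared H3K9me2 peaks had a median fold of 5.52, 10 fragments and a width of 481 bp. Input-alone peaks had a median fold of 5.08, 7 fragments and a width of 386 bp. Folds were thus close across the classes, and no class formed broad domains in these lists. The lowest background fitted to any peak, read here as genome-wide coverage, was 0.544 fragments per base in the H3K9me2 list. It was 0.371 in the input list, a ratio of 1.47. A lower depth leaves weak sites uncalled, and how much of either class this set was not tested. Among the 5039 H3K9me2 peaks with q of 1e-05 or less, 22.9% overlapped an input peak, and among 1925 such input peaks 32.4% overlapped an H3K9me2 peak.

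The shared fraction followed peak height differently in the 2 lists. In 5 equal groups of H3K9me2 peaks from the lowest to the highest fold, 17.3%, 19.1%, 20.5%, 21.6% and 20.7% overlapped an input peak. In 5 such groups of input peaks, 15.4%, 19.9%, 22.9%, 26.5% and 31.8% overlapped an H3K9me2 peak. The share of input peaks met by H3K9me2 thus rose at each step, while that of H3K9me2 peaks met by input stayed within a few percentage points.

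The classes lay in different parts of the genome. A peak was placed by its centre, at an end when within 2 kb of either end of a protein-coding gene, in the body when elsewhere in a gene, and otherwise intergenic. Of antibody-alone peaks, 68.4% were intergenic, 22.5% lay in gene bodies and 9.10% at gene ends (exact 95% interval 8.55 to 9.67). Of input-alone peaks, 25.0% were intergenic, 24.6% lay in bodies and 50.4% (49.4 to 51.5) at ends. Shared H3K9me2 peaks stood between them, with 47.4% intergenic, 17.5% in bodies and 35.1% (33.2 to 37.0) at ends. Intergenic peaks of the first class also lay deeper in gene deserts. Their median distance to a coding gene was 134 kb, against 120 kb for shared and 38.7 kb for input-alone peaks. Over 500 kb from any coding gene lay 10.6% of antibody-alone, 7.08% of shared and 1.67% of input-alone peaks.

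H3K4me3 of Ctrl muscle sorted the classes in the same order. Of antibody-alone peaks, 777 (7.55%, 7.05 to 8.08) overlapped an H3K4me3 peak. This was so for 1015 shared H3K9me2 peaks (39.9%, 38.0 to 41.8) and for 4448 input-alone peaks (53.0%, 52.0 to 54.1). Among peaks with H3K4me3, the share at gene ends was nearly alike in the classes: 80.4%, 82.2% and 81.7% of antibody-alone, shared and input-alone peaks lay at gene ends. Among peaks without it, 73.4% of antibody-alone and 73.6% of shared peaks were intergenic, against 47.0% of input-alone peaks. The shared class thus held 1015 peaks with H3K4me3, of which 834 lay at gene ends, and 1528 without it, whose intergenic share was close to that of the antibody-alone peaks.

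**Figure D1:**
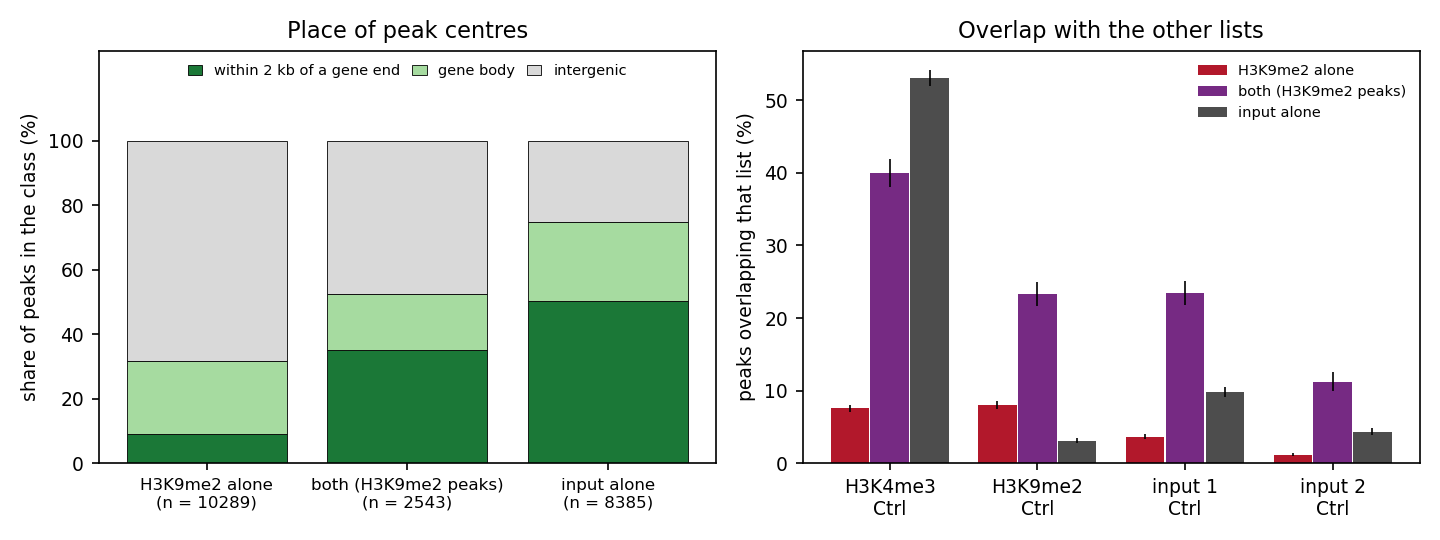
Left, stacked bars give the share (%) of peak centres of each CKO class at gene ends, in gene bodies and between genes. Right, bars give the share (%) of each class that overlaps a peak of the 4 Ctrl lists, with exact 95% binomial intervals as error bars. Antibody-alone peaks are mostly intergenic (68.4%), and H3K4me3 overlap climbs from 7.55% to 39.9% and 53.0% across the classes.

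The Ctrl H3K9me2 and input lists separated the classes in another way. Ctrl H3K9me2 peaks met 8.05% of antibody-alone peaks (7.53 to 8.59), 23.3% of shared peaks (21.7 to 25.0) and 3.10% of input-alone peaks (2.74 to 3.49). Ctrl input 1 met 3.63%, 23.4% and 9.80% of the same classes, and Ctrl input 2 met 1.16%, 11.2% and 4.34%. Shared peaks were thus the class met most often by each of these 3 lists. The Ctrl H3K9me2 list and Ctrl inputs 1 and 2 are short (3703, 3071 and 1309 peaks), so a missing overlap with them says little. The Ctrl H3K4me3 list is longer, with 16573 peaks. With H3K4me3 included, 82.7% of antibody-alone, 33.5% of shared and 42.5% of input-alone peaks met none of the 4 Ctrl lists. In the shared class, peaks without H3K4me3 met Ctrl H3K9me2 in 28.1% and a Ctrl input in 26.2% of cases. Shared peaks with H3K4me3 met them in 16.2% and 31.7%. Antibody-alone peaks with H3K4me3 met a Ctrl input in 19.2%, against 3.33% without H3K4me3. Most of these overlaps came from Ctrl input 1, which has 3071 peaks against 1309 in Ctrl input 2. Ctrl input 2 by itself met 5.41% and 0.810% of antibody-alone peaks with and without H3K4me3, and 14.5% and 9.03% of shared peaks. The part of list length in this was not tested. The peak names in the lists of CKO H3K9me2 and Ctrl input 1 carry the same numbers for their source alignments, although the lists have 0 positions in common, so overlaps between these lists depend on the labels being right.

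At start sites the classes could be placed to the base. RefSeq windows were at hand for 17492 of 21887 coding genes (79.9%), none of them on chromosome 18, whose peaks were left out of these counts. A summit lay within 500 bp of a start for 587 of 9941 antibody-alone peaks (5.90%), 693 of 2463 shared peaks (28.1%) and 2935 of 8109 input-alone peaks (36.2%). Of these summits, 64.2%, 63.8% and 73.2% were downstream of the start. Their median position was 74, 63 and 119 bp downstream. All 3 classes therefore peaked just inside the transcribed side.

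**Figure D2:**
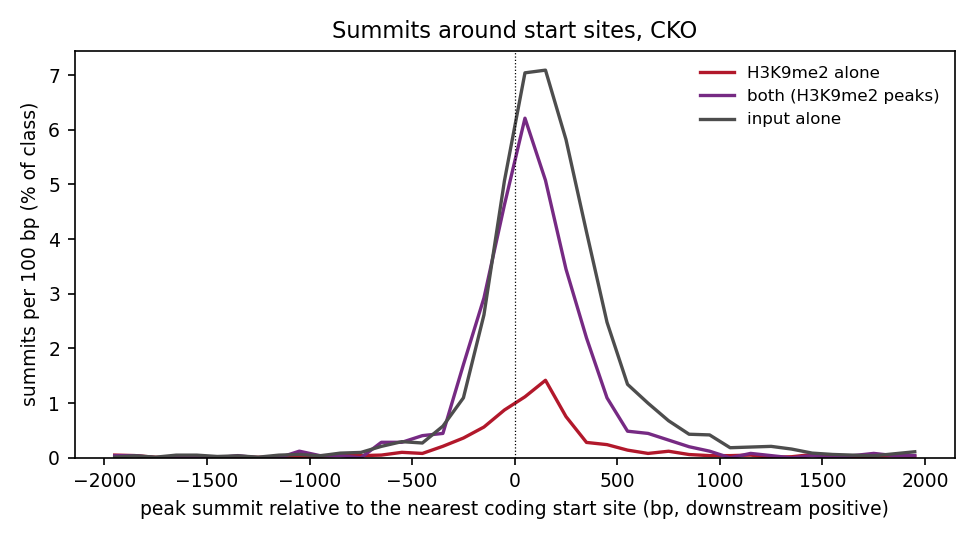
Lines give the share of each class's summits (%) per 100-bp bin against the distance from the nearest coding start site (bp, downstream positive). All 3 classes peak just downstream of the start, at median positions of 74, 63 and 119 bp for antibody alone, shared and input alone.

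The start windows met by the classes were rich in CpG. Windows met by antibody-alone peaks (609) had a median GC content of 64.7% and 24 CpG. Those met by shared peaks (653) had 67.7% and 28, and those met by input-alone peaks (2940) 66.3% and 27. H3K4me3-marked windows with no CKO peak (7223) had 61.3% and 21, and windows with neither (9658) had 48.0% and 3. Together these groups hold fewer than the 21263 windows in all, so some windows met by a CKO peak are in none of them. The 3 classes were thus closer to each other than to unmarked windows. H3K4me3 peaks met 88.3% of the antibody-alone windows, 96.3% of the shared and 93.4% of the input-alone windows. The 71 antibody-alone windows without H3K4me3 stood apart, with a GC content of 54.7% and 6 CpG.

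The 4 motifs were counted in the same windows. A GC box on either strand was found in 74.9% of antibody-alone, 83.5% of shared and 77.8% of input-alone windows, against 46.2% of all 21263 windows. A TATA box was found in 6.40%, 2.76% and 4.32%, against 12.6% of all windows. The 7-base ETS motif was found in 17.9%, 17.8% and 19.2%, against 11.6%. A CCAAT box was found in 40.6%, 39.5% and 32.5%, against 38.2%. Most windows of the classes met H3K4me3, unlike many of all windows. H3K4me3-marked windows with no CKO peak had a GC box in 67.6% and a TATA box in 6.34%. They had the ETS motif in 19.2% and a CCAAT box in 38.9%. The ETS shares of the classes were thus close to that of marked windows without a CKO peak. The motifs did not separate antibody alone from the other classes in any simple way, and a match is a match of letters, not a bound site.

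The printed starts show the range within each class. Rnpc3, which encodes a protein of the minor spliceosome, had the highest antibody-alone peak at a gene end, with a fold of 12.5 and 21 fragments. Its summit lay 223 bp inside the gene, and the site had no peak in any of the 3 inputs or in Ctrl H3K9me2, but an H3K4me3 peak of fold 17.2. Its window has an ETS motif and no GC box. Ccdc59, divergent from Mettl25, had an antibody-alone peak of fold 10.8 and 21 fragments with a Ctrl H3K9me2 peak of 5.49 and an H3K4me3 peak of 11.6. Hjurp, which encodes the chaperone that loads the centromeric histone CENP-A, carried a peak in all 6 lists. Its folds were 9.27 and 7.92 in CKO H3K9me2 and input, 8.44 in Ctrl H3K9me2, 7.61 and 5.78 in the Ctrl inputs and 22.3 for H3K4me3. Zfp868, a zinc finger gene, had 11.4 in CKO H3K9me2 and 5.58 in input, and 21.6 for H3K4me3, with no peak in the other Ctrl lists. Lta4h, which encodes leukotriene A4 hydrolase, had 9.68 in CKO input, 7.68 and 4.52 in the Ctrl inputs and 16.1 for H3K4me3, and no H3K9me2 peak in either genotype. Gtsf1, a germline factor of the piRNA pathway, had the highest input-alone peak at a gene end (10.5, 14 fragments) and no peak there in the 5 other lists.

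Genes of the H3K9 and H3K4 methylation pathway fell in all 3 classes. Over all 21887 coding genes, 10.2% had an antibody-alone peak in the body or within 2 kb (2242 genes), 6.42% a shared peak (1405) and 28% an input-alone peak (6133). Of the 22 genes of the pathway, 1, 2 and 13 did. Trim28, the corepressor that recruits the H3K9 methyltransferase SETDB1, had the antibody-alone peak, with a fold of 6.20 and 9 fragments 56 bp inside the gene, under an H3K4me3 peak of 12.0. Kdm3a, a demethylase for H3K9me2, had shared peaks of 6.56 in H3K9me2 and 6.01 in input whose summit lay 1 bp from its start, with H3K4me3 at 14.1. Kdm4c, another H3K9 demethylase, had 4.91 and 5.07 at an internal start, with H3K4me3 at 14.2. Cbx5, which encodes the H3K9 reader HP1 alpha, had input-alone peaks of 7.99 and 4.10 at its starts, and Suv39h2, an H3K9 methyltransferase, had one of 6.01. Phf2 itself had no CKO peak of either kind in or near the gene and an H3K4me3 peak of 7.81 in Ctrl, and peak lists of this kind do not check the deletion.

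Counts at gene ends alone gave the same order of classes as counts over whole genes. Within 2 kb of an end, 1099 genes had an antibody-alone peak (5.02%), 1045 a shared peak (4.77%) and 4817 an input-alone peak (22%). Such an end peak was present in 49.0% of genes with an antibody-alone peak, 74.4% of those with a shared peak and 78.5% of those with an input-alone peak. H3K4me3 marked an end of 60.7%, 81.6% and 84.0% of these genes, against 59.5% of all coding genes. Genes with an antibody-alone peak were therefore marked about as often as coding genes at large. Separate antibody-alone and input-alone peaks occurred in 710 genes, whose median length was 190 kb.

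Long genes collected antibody-alone peaks. The median length of genes with such a peak was 67.2 kb, against 51.6 kb with a shared peak, 36.3 kb with an input-alone peak and 17.2 kb for all coding genes. Of the 352 genes of 400 kb or more, 82.4% had an antibody-alone peak, 38.9% a shared and 65.3% an input-alone peak. Per Mb of gene and flank, these long genes held 4.42 antibody-alone, 0.777 shared and 1.59 input-alone peaks. Genes under 10 kb held 5.14, 2.86 and 16.8 per Mb. Antibody-alone density was thus alike at both extremes of length, with a lower value of 2.15 in genes of 50 to 200 kb, while input-alone density was about an order of magnitude lower in the longest genes.

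Single long genes show how such peaks were spread. Cntnap2, a neuronal adhesion gene of 2241 kb, held 13 antibody-alone peaks with folds from 3.88 to 7.16 and 1 input-alone peak of 4.10. A830018L16Rik held 12 in 562 kb, a density of 21.3 per Mb, with folds from 3.83 to 8.53 and 5 to 20 fragments. Fhit, a gene at a known fragile site, held 11 in 1612 kb, the highest of fold 10.1. The peaks of Cntnap2 mostly had no Ctrl counterpart: 1 of the 13 sites had peaks in Ctrl H3K9me2 (5.24) and in both Ctrl inputs (5.11 and 4.89), and 1 had peaks in both Ctrl inputs (5.11 and 5.15) and in H3K4me3 (9.45). Dab1, Dlgap2, Ptprd and Ctnna3 also held 11 each, and Grid1, Ralyl and Lrp1b 10 each. Dlgap2, a postsynaptic scaffold gene, further held 1 shared peak of 7.09 in H3K9me2 and 5.31 in input that 3 Ctrl lists also called, at 5.44, 4.19 and 6.52. Ralyl held no peak of the other classes.

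Neuronal adhesion genes, most of which are long, often had antibody-alone peaks, as other long genes did. Of 21 adhesion and synapse genes (median length 969 kb), 17 had an antibody-alone peak, 8 a shared and 11 an input-alone peak, through 105, 10 and 16 peaks. These shares, 81.0%, 38.1% and 52.4%, stand beside 82.4%, 38.9% and 65.3% in all genes of 400 kb or more. The list also holds shorter genes, so the 2 sets are not matched in length. Those without an antibody-alone peak were Cdh9, Cdh10, Nrxn2 and Nlgn3, of 129, 197, 114 and 22.2 kb. Every listed gene of 400 kb or more had one. Nlgn1, a postsynaptic adhesion gene, held 4 antibody-alone peaks, the highest of 10.5 with 21 fragments over a Ctrl H3K9me2 peak of 6.62. Of 46 glutamate and GABA receptor genes, 18, 13 and 20 had peaks of the 3 classes, and of 92 potassium channel genes 20, 9 and 37. Kcnj3, an inwardly rectifying channel gene, had the highest antibody-alone peak of the channels (10.3). The shares of the receptor and channel lists were above those over all genes, the genes are also longer (median lengths 160 and 34.5 kb), and the part of length was not tested. Of 57 clustered protocadherins, 14 had an antibody-alone peak (24.6%, against 10.2% of all coding genes) and 35 an input-alone peak (61.4%, against 28%). These came from only 5 and 6 peaks, since the genes of a cluster share their constant exons.

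Sarcomere, metabolic and signalling genes had antibody-alone peaks in 0 to 2 genes of each list. In 15 fast-fibre genes 2 had one: Myl1, an essential myosin light chain, at 5.52, and Tnnt3, fast troponin T, at 3.68. Of the 15, 4 had an input-alone peak, as Pvalb at 7.78 and Mylpf at 5.10 did at ends with H3K4me3. No slow-fibre gene of 12 had an antibody-alone or shared peak, and 3 had an input-alone peak. Among 15 genes shared by all fibres, Myom2, which encodes the M-band protein myomesin 2, had an antibody-alone peak of 7.68, Dmd, the dystrophin gene, had 2 shared peaks and 5 had input-alone peaks. Glycolysis genes (12) had 0, 0 and 2, and atrophy and autophagy genes (15) had 0, 1 and 9, the shared one being Fbxo30, a ubiquitin ligase gene, at 5.91 in H3K9me2 and 4.85 in input. Growth signalling genes (15) had 1, 1 and 6, with Irs1, the insulin receptor substrate, at 5.55 in the first class. In lists of 12 to 15 genes, most of these counts were near the shares over all genes (10.2%, 6.42% and 28%). The atrophy and autophagy list stood above them for input alone, at 60% (32.3 to 83.7). H3K4me3 marked an end of all 15 of its genes.

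Regulators of myogenesis included a pair of neighbours with antibody-alone peaks. Myf5 had one of 5.60 with 9 fragments 464 bp inside the gene, where Ctrl H3K9me2 had a peak of 6.17 and no input or H3K4me3 peak lay. Myf6, its neighbour on chromosome 10, had one of 5.18 with 7 fragments over an H3K4me3 peak of 5.63, with no peak in the other Ctrl lists. No other gene of the 15 had such a peak, and 7 had an input-alone peak, led by Tead1 at 7.67 and Pax3 at 7.10. Of 10 satellite cell markers, 2 had an antibody-alone peak (Myf5 and Calcr, the latter at 8.06 in the last part of the gene), 1 a shared peak (Sdc4, 5.18 in H3K9me2 and 4.88 in input) and 2 an input-alone peak (Chrdl2 at 6.28 and Pax7 at 4.11). Among the markers of other cell types in the muscle, antibody-alone peaks lay in 1 of 11 fibroadipogenic genes (Col1a2, 4.78), 1 of 10 endothelial genes (Tek, 5.04), 1 of 11 immune genes (Adgre1, 7.36) and 1 of 8 Schwann cell genes (Pmp22, 4.06). These counts were near the 10.2% over all coding genes. Input-alone peaks were found in 2, 6, 1 and 4 genes of the same lists (18.2%, 60%, 9.09% and 50%), against 28% of all coding genes. The myogenic regulators had 46.7%. Intervals in such short lists were wide, as 26.2 to 87.8 for the endothelial and 15.7 to 84.3 for the Schwann cell genes. A peak list does not tell which cell type gave the fragments.

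Genes active in most cells had more input-alone than antibody-alone peaks, as coding genes had at large. Of 84 respiratory chain genes, 5 had an antibody-alone, 1 a shared and 27 an input-alone peak. Of 84 cytosolic ribosomal protein genes 1, 3 and 19 did, of 78 mitochondrial ribosomal protein genes 4, 7 and 23, and of 39 proteasome genes 0, 4 and 15. Antibody-alone shares were thus 5.95%, 1.19%, 5.13% and 0%, against 10.2% of all coding genes. The intervals for cytosolic ribosomal (0.0301 to 6.46) and proteasome genes (0 to 9.03) ended below that share. Shared peaks were in 1.19%, 3.57%, 8.97% and 10.3%, against 6.42%. Input-alone peaks were in 32.1%, 22.6%, 29.5% and 38.5%, against 28%. Cox7c, a subunit of cytochrome oxidase, had the highest antibody-alone peak of the respiratory list (7.13, 10 fragments), with H3K4me3 at 19.6 and a Ctrl input 1 peak of 5.41. Mrps33 had the highest shared pair of the ribosomal lists, at 8.51 and 6.84. Housekeeping genes (15) had 0, 1 and 5, and of 39 Hox genes 1, 0 and 12 did. Hoxc9 was that one, at 3.55.

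Receptor and zinc finger families, whose copies can share reads, are given as uncertain. Of 1106 olfactory receptor genes, 28 had an antibody-alone, 4 a shared and 7 an input-alone peak, and of 353 vomeronasal genes 13, 3 and 5. All of these shares lay below those over all genes, and these genes are short. Olfr819 had the highest (9.62, 23 fragments), about 2 kb from the gene. Of 367 numbered Zfp genes 32, 20 and 104 did, near the shares over all genes. Zfp959 (9.46) and Zfp433 (9.30) led the antibody-alone peaks, both over H3K4me3 peaks (21.6 and 23.6). Of 43 replication histone genes 1, 4 and 7 did (2.33%, 9.30% and 16.3%, against 10.2%, 6.42% and 28% over all genes). Neighbouring genes share peaks, and the 4 histone genes with a shared peak had it through 2 peaks.

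**Figure D3:**
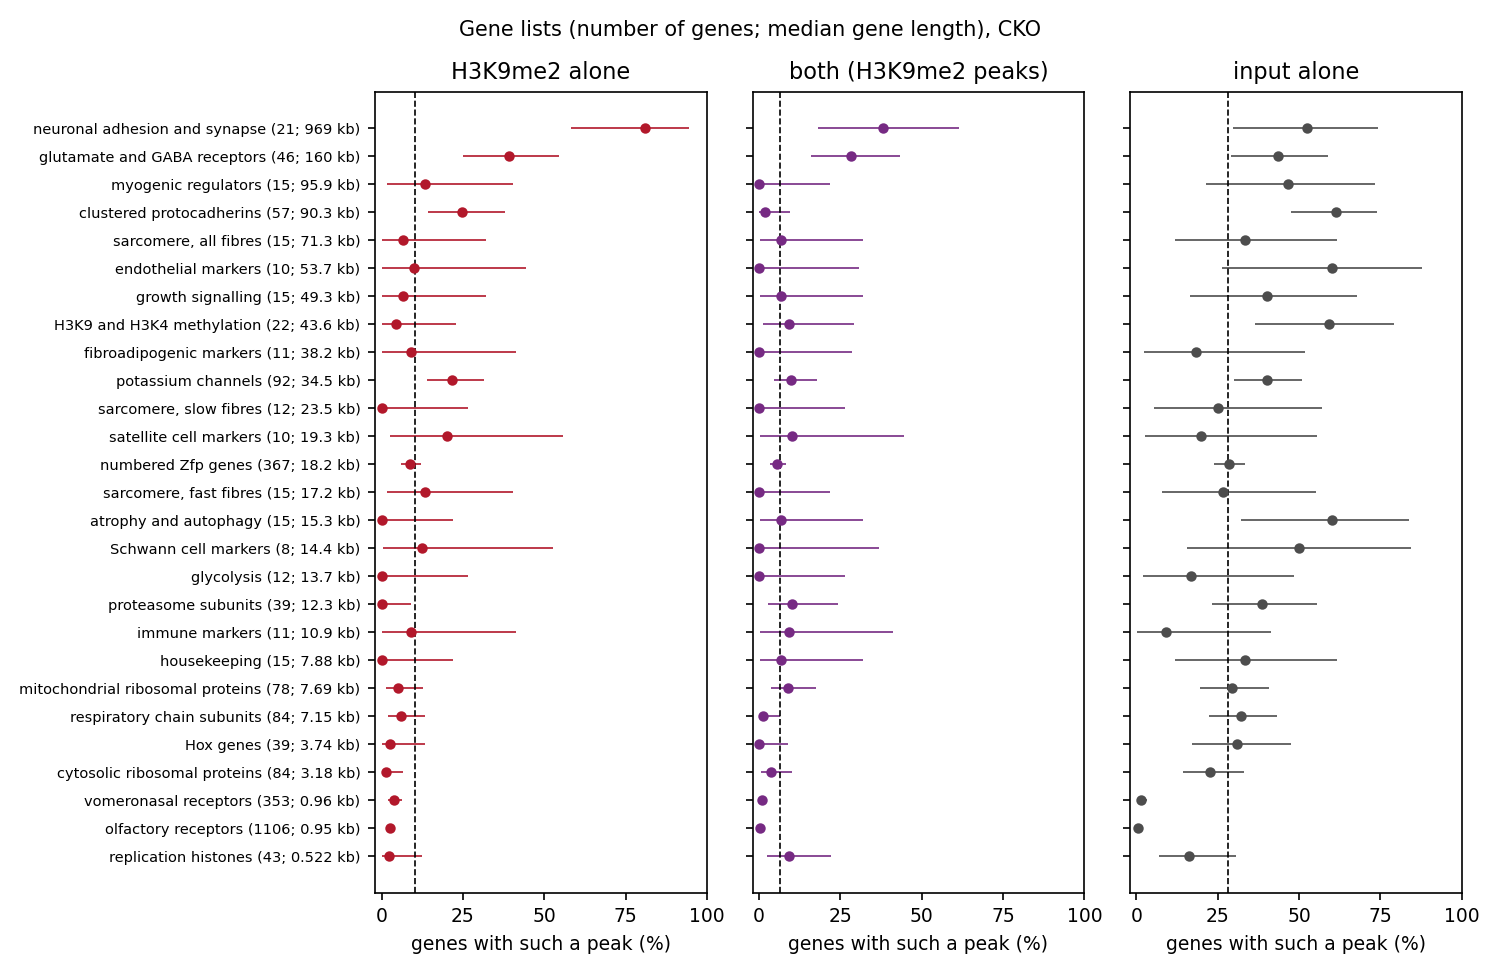
Points give the share (%) of each gene list with a peak of each CKO class in the body or within 2 kb, with exact 95% binomial intervals, and dashed lines the share over all coding genes (10.2%, 6.42% and 28%). List size and median gene length stand beside the names. The long adhesion and synapse genes (median 969 kb) lie farthest above the line for antibody alone, and lists of short housekeeping-type genes lie at or below it.

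Where both lists had a peak, the heights were close. The 2551 overlapping pairs had median folds of 5.52 in H3K9me2 and 5.40 in input, and the median ratio was 1.03 (quartiles 0.865 and 1.22). In 2230 pairs (87.4%) the folds were within 1.5 times of each other, 15 were at least 2 times higher in H3K9me2 and 10 at least 2 times higher in input. Unpaired peaks also had folds in a narrow band, with quartiles of 4.59 and 6.38 for antibody alone and 4.38 and 5.81 for input alone. Close folds in a pair therefore say little by themselves. H3K9me2 was higher in 54.4% of pairs (52.5 to 56.4). The pairs met closely in position, with a median distance between summits of 127 bp and 65.5% within 200 bp. Ranks of the folds followed each other weakly over all pairs (Spearman's rho 0.232, a description over sites of the same 2 libraries). In the 51 pairs found in all 6 lists rho was 0.862, and the median folds were 7.77 and 8.41. Those 51 included the highest shared sites, such as one 29.3 kb from Rpusd4 (30.3 and 32.8) and one in Zc3h7a (27.8 and 29.6), each also above 22 in every Ctrl list.

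Few shared sites leaned strongly to one list. The site most in favour of the antibody lay 18.7 kb from Celf2, an RNA-binding protein gene, with 10.9 in H3K9me2 against 4.36 in input, on 24 and 5 fragments, and with a Ctrl H3K9me2 peak of 5.68. An end of Cdkn2b, a cell cycle inhibitor gene, had 8.70 against 4.03, on 14 and 6 fragments, and an end of Tmod3, a gene for an actin-capping protein, had 7.13 against 3.42. The most in favour of input lay in Zfp978, with 3.43 against 8.70 on 6 and 17 fragments, within a family of near-identical copies. An end of Tmem267 had 4.52 against 10.3, with peaks of 6.54 and 7.22 in the Ctrl inputs. Most of these ratios set under 10 fragments in 1 library against 10 or more in the other.

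**Figure D4:**
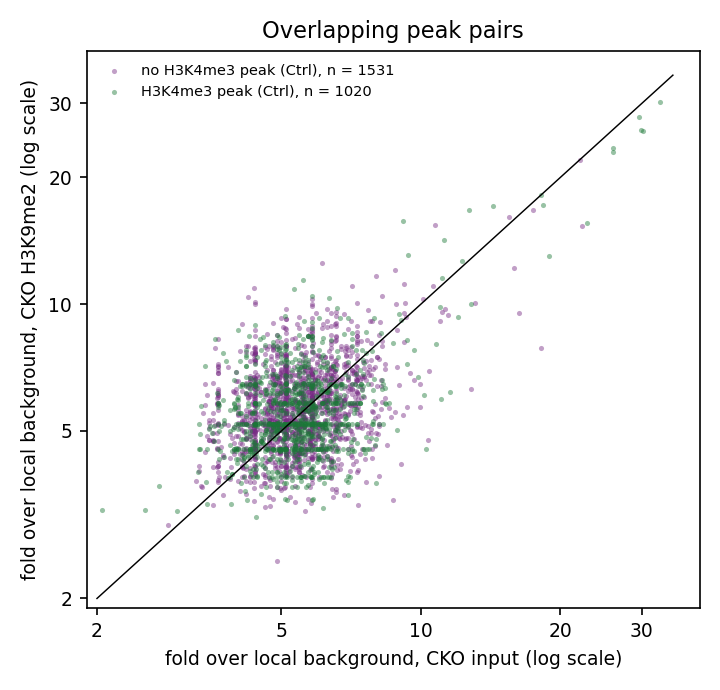
Each point is an overlapping pair of CKO peaks, with the fold over local background in input on the x axis and in H3K9me2 on the y axis (both log scales), coloured by overlap with H3K4me3. Most of the 2551 pairs lie near the diagonal (median ratio 1.03), and the few of highest fold lie on or below it.

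The highest unpaired sites differed in kind between the lists. The highest antibody-alone peak, at chr13:68428919-68429495, had a fold of 13.5 and 34 fragments and lay 131 kb from Mtrr. The next, at chr5:42323932-42324413, had 13.2 and 30 fragments and lay 480 kb from Bod1l. Of the 10 highest, all but that of Rnpc3 were intergenic, and those near Tle4 and Nr4a2 also had Ctrl H3K9me2 peaks (5.03 and 5.37). The highest input-alone peaks were taller and narrow. One at chr16:17222217-17222517, 8.24 kb from Rimbp3, had 25.6 and 129 fragments and no peak in any other list. One 64.7 kb from Cr2 had 23.0 and 89 fragments with a Ctrl input 2 peak of 15.7, and one 7.43 kb from Tmem196 had 22.6 and 95 fragments with Ctrl input peaks of 21.8 and 13.9. After these 3 the next was 11.5, in Arhgap21.

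Other annotated loci were rarely met. Pseudogenes were met by 3.75% of antibody-alone (3.39 to 4.14), 2.83% of shared (2.22 to 3.55) and 1.67% of input-alone peaks (1.41 to 1.97). Long non-coding RNA genes were met by 8.22%, 8.65% and 10.5%. MicroRNA hairpins were met by 2, 6 and 20 peaks and tRNA genes by 3, 2 and 6.

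Chromosomes and megabases repeated the contrast between gene-poor and gene-rich DNA. Antibody-alone peaks were densest on chromosome 3 (5.08 per Mb) and, among autosomes, sparsest on chromosome 11 (2.91). Input-alone peaks were densest on chromosome 11 (4.95) and, among autosomes, sparsest on chromosome 3 (2.46). The X chromosome, single in males, had 1.32 antibody-alone, 0.439 shared and 0.797 input-alone peaks per Mb. Over the 19 autosomes, density of coding genes and of peaks had a Spearman's rho of -0.65 for antibody alone, -0.70 for shared and 0.861 for input alone, as a description of points from the same libraries. In megabases with no coding gene the means were 4.49 antibody-alone, 0.770 shared and 0.631 input-alone peaks, and in those with 20 or more genes 2.66, 0.834 and 7.29.

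**Figure D5:**
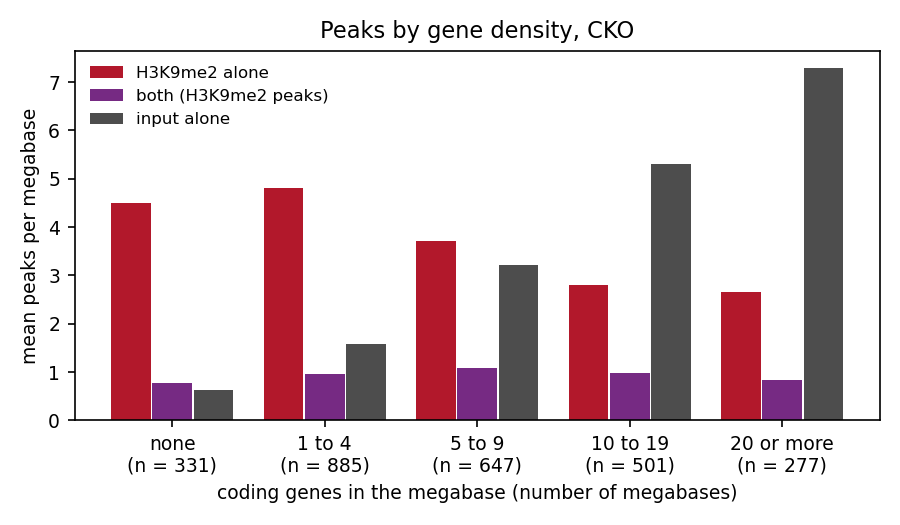
Bars give the mean number of CKO peaks per megabase for each class, with megabases grouped by their number of coding genes. Input-alone peaks climb from 0.631 in megabases with no coding gene to 7.29 in those with 20 or more, while antibody-alone peaks go from 4.49 to 2.66.

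Single megabases show where each class crowded. The most antibody-alone peaks in a megabase, 21, lay at 61 Mb of chromosome 4 in the cluster of major urinary protein (Mup) genes, beside 2 shared and 7 input-alone peaks. The next, 19, lay at 15 Mb of chromosome 10, where no coding gene is annotated and input-alone peaks numbered 0. At 20 Mb of chromosome 8, a region with defensin genes, 16 antibody-alone and 16 shared peaks lay together. The Mup and defensin copies are near-identical, so reads there may be split among them. Input-alone peaks were most frequent, at 17, in 3 megabases: at 69 Mb of chromosome 11 with 62 coding genes, and at 129 and 155 Mb of chromosome 4 with 31 and 36.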

How the data were processed

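CUT&RUN peak lists of 6 libraries were used, 1 list per library. Per the submitters' processing notes, Bowtie2, MACS2 and mm10 were used. Versions, the making of the input and any control used in peak calling were not given in the sources used here. For each peak the authors deposited a fold (a ratio of summit pileup to local background), −log10 p, −log10 q and a score (10 times −log10 q). Peaks reach q of about 0.05. Nothing says that libraries came from separate animals.

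Autosomal, X and Y peaks were kept (12832 of 12891 for H3K9me2, 10931 of 10997 for input). Folds and p-values gave whole summit fragments for 99.96% and 99.8% of peaks, within 0.1% of −log10 p. Intervals are exact 95% binomial (Clopper-Pearson). Genes and start windows came from RefSeq tables of GRCm38.p6, on which mm10 is based. Gene counts carry no strand or exon.

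Members and the 27 gene lists were chosen with earlier results of these data known. Named genes were Phf2, the 10 highest peaks per class, the 10 genes with most antibody-alone peaks or highest at an end in the other classes, the 10 pairs leaning most to each list, and up to 4 genes per list and class. A gene the rule names is not reported here. Antibody-alone peaks at ends were added after their values were seen. Overlap, location and fragment code was tested on simulated data. Alternatives were stricter peaks, other overlaps, lists of equal length, other windows, and other inputs. Python 3.11.15, numpy 2.4.6, pandas 2.3.3 and scipy 1.17.1 were used.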

Additional observations from a re-analysis of the deposited data

How the results depend on the processing

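The share of H3K9me2 peaks with an input peak (19.8%) was 18.3% with an overlap of 50% of the shorter peak, 20.9% within 1 kb, 7.50% with both lists at q of 1e-05 or less, 14.2% with both at or above their median fold, 20.6% in lists of equal length and 23.4% against any of the 3 inputs (20.7% to 22.7% leaving out either Ctrl input). The share of input peaks with an H3K9me2 peak (23.3%) was 21.5%, 24.7%, 19.6%, 16.2% and 20.6% under the first 5 of these. Antibody-alone, shared and input-alone peaks numbered 4661, 378 and 1547 at q of 1e-05 or less. They numbered 5514, 912 and 4720 at or above the median fold. Fewer peaks enter both lists under these cuts, and a peak whose partner fails the cut counts as alone. Of the 5039 H3K9me2 peaks at q of 1e-05 or less, 1152 overlapped an input peak as deposited, and 378 one that also passed.

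With the CKO lists and the H3K4me3 list at q of 1e-05 or less, H3K4me3 met 9.80%, 29.4% and 57.2% of the 3 classes. The Ctrl H3K9me2 and Ctrl input lists were left as deposited. Of the same stricter CKO classes, Ctrl H3K9me2 met 15.1%, 40.7% and 6.59%, and either Ctrl input 8.69%, 47.4% and 21.7%. Gene ends then held 10.9%, 19.8% and 54.0%, intergenic sequence 69.4%, 60.1% and 26.5%, and genes numbered 1168, 158 and 1247. H3K4me3 met 8.38% of antibody-alone peaks under the 50% overlap, and either Ctrl input met 14.2% of input-alone peaks within 1 kb. Leaving out either Ctrl input, shares ran from 1.16% to 3.63%, 11.2% to 23.4% and 4.34% to 9.80%. Ends within 1 kb gave 7.60%, 32.7% and 44.5%, and within 5 kb 12.2%, 38.3% and 56.4%, with 66.5% of antibody-alone and 23.5% of input-alone peaks then intergenic. How much of the shifts at the stricter q came from peaks counted as alone after their partner failed the cut was not tested. Nor was the cause of the other shifts. The share at gene ends (at 1 kb, 5 kb and the stricter q) and the share with H3K4me3 (at the 50% overlap and the stricter q) ran from antibody alone, through shared, to input alone.

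No paired analysis was possible because each CKO group has 1 library and no result comes from a test. Depth limits what a missing peak says: the lowest called summits had 5 fragments in H3K9me2 and 4 in input, so sites below that are not in the lists.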
